A study of Mus musculus with 20 samples.

Results

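Integrins and laminins were followed across 4 groups of mouse liver samples by RNA sequencing. The members are the genes present in both count tables whose symbols name an integrin alpha chain, an integrin beta chain or a laminin alpha, beta or gamma chain. They number 37 of the 50559 genes counted, with 18 integrin alpha chains, 8 integrin beta chains and 11 laminin chains. Of these, 31 reached 1 CPM (counts per 1000000 reads on genes) in at least 5 libraries and were tested. The remaining 6, among them Itga11, Itgae, Itgb6, Itgb8 and Lama3, were too low for a test, and these 5 are described by their levels.

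The groups are Aldafermin+MYC, FGF19+MYC and sgTrp53+MYC, each with 5 tumors, and Liver, with 5 livers, all from wild type C57BL/6J mice, which were female and young adults at injection. FGF19 is a human gut hormone that restrains bile acid synthesis in the liver, and Aldafermin (NGM282) is an engineered analog of it that differs at the amino terminus. In each tumor group, plasmids were driven into hepatocytes by hydrodynamic injection into the tail vein with the Sleeping Beauty transposase. MYC overexpression is common to the 3 tumor groups, and the partner was Aldafermin, FGF19 or a CRISPR guide against Trp53. The label for treatment reads None in the sgTrp53+MYC group, whose name comes from the sample titles, and the livers are labelled as not treated, whereas the methods describe controls that received a fluorescent protein plasmid. Tumors were taken from independent mice, so n counts mice. The model limits the altered cells to the hepatocytes that took up plasmid, and each tumor was sequenced in bulk with its vessels, stroma and leukocytes, so that fewer cells of a type and less RNA per cell cannot be told apart.

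Integrins are receptors built from 1 alpha and 1 beta chain that hold cells to the extracellular matrix or to other cells and signal through talin, kindlin and focal adhesion kinase. Laminins are cross-shaped trimers of 1 alpha, 1 beta and 1 gamma chain that form the sheet of basement membranes together with type IV collagen, nidogen and perlecan. Healthy liver is unusual in that the hepatocyte surface facing the sinusoid lacks a continuous basement membrane, while bile ducts and larger vessels have one. Laminin trimers are read mainly by the alpha3, alpha6 and alpha7 integrins, fibronectin and vitronectin by alpha5 and alphav integrins through an RGD motif, and collagens by alpha1, alpha2, alpha10 and alpha11. The beta2 and beta7 chains and their alpha partners belong to leukocytes.

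Between 18004977 and 44427184 reads per library fell on genes in the first count table, and between 54042455 and 66354724 in the second, which holds the sgTrp53+MYC libraries alone. Hence the table and the sgTrp53+MYC tumor type cannot be told apart in any comparison with that group. The tables also differed in the reads left out. Reads ambiguous between genes were 3.03% to 6.30% of all reads in the first table and 11.1% to 14.6% in the second. Reads not aligned were 15.3% to 34.0% and 5.34% to 6.82%. What this does to members that overlap other genes was not tested. The targeted gene Trp53 lay at 18.7 to 79.9 CPM in sgTrp53+MYC tumors, against 90.8 to 176 with Aldafermin, 109.7 to 155 with FGF19 and 28.8 to 36.4 in livers. Summed over 9 hepatocyte markers, expression ranged from 188724 to 234774 CPM in livers and from 3856 to 29751 CPM over the tumors. Most of the livers' sum was Alb, at 147485 to 177109 CPM in livers and 731 to 17173 CPM over the tumors. Each of the 9 was lower in every tumor than in every liver, by different amounts. Cps1 was at 4213 to 6008 CPM in livers, 342 to 908 in FGF-driven and 1034 to 1906 in sgTrp53+MYC tumors. Library sgTrp53+MYC replicate 2 stood apart, with 72 of 14333 genes (0.502%) at least 8 times above the highest of the other sgTrp53+MYC libraries, 3 of them among the 31 tested members. In Aldafermin+MYC replicate 4 the same was true of 108 genes, 0 of them tested members.

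The levels of single libraries are given below in CPM on TMM-scaled library sizes in the order of replicates 1 to 5. Differences are log2 fold changes with their SE from edgeR's quasi-likelihood test, fitted once to the 14333 genes that passed the filter, with p-values adjusted over these genes by the Benjamini-Hochberg method. A gene was called higher or lower at an adjusted p under 0.05. The first comparison set both FGF groups against sgTrp53+MYC tumors, the next set Aldafermin against FGF19, and the last ones set tumors against livers.

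**Figure D1:**
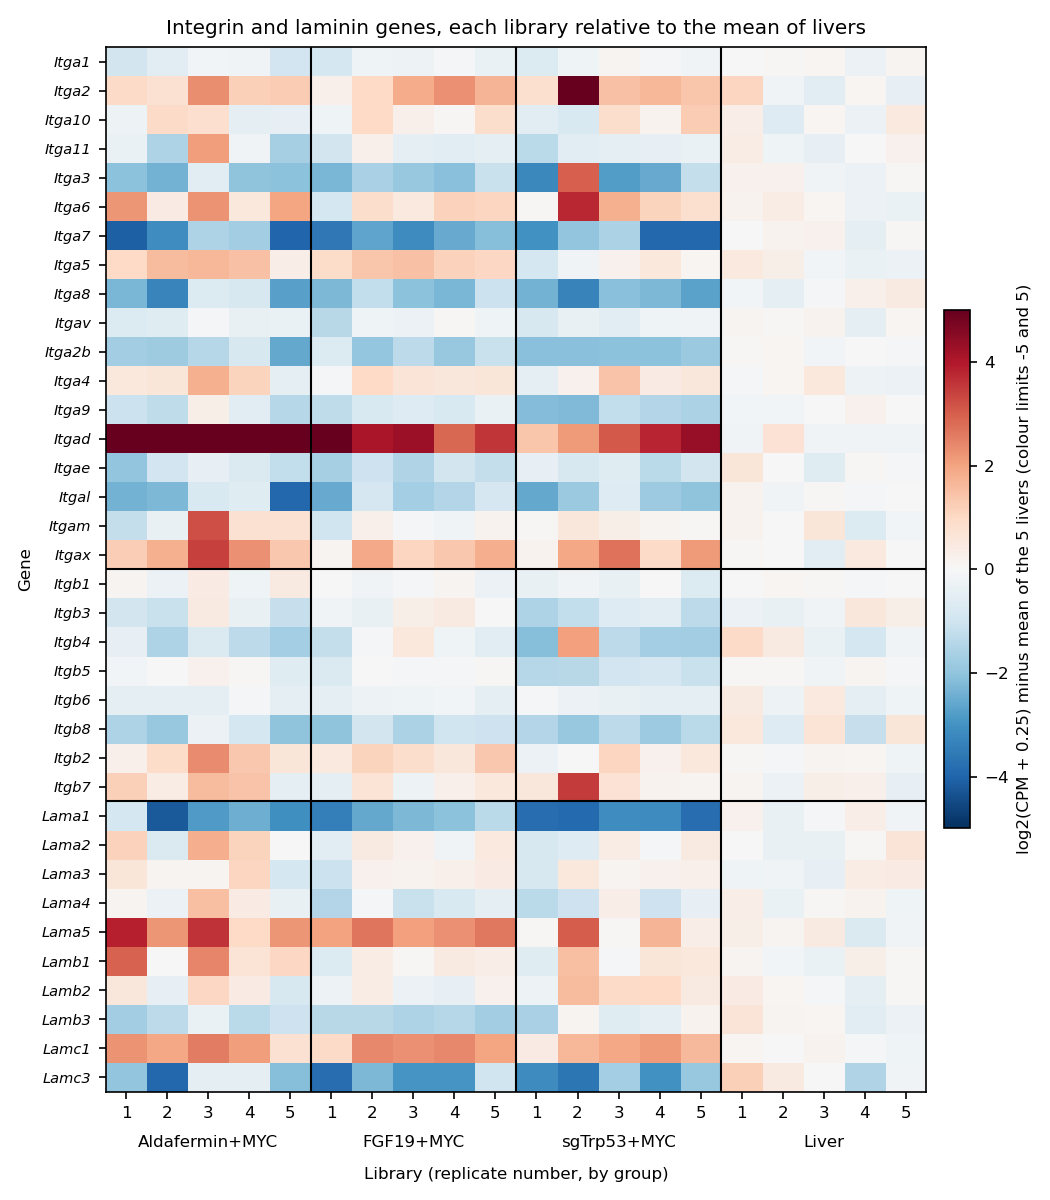
Heat map of 36 of the genes (rows: integrin alpha chains, integrin beta chains, laminin chains) in the 20 libraries (columns), as log2(CPM + 0.25) minus the mean of the 5 livers, with colours limited at -5 and 5. Itgad, Lama5 and Lamc1 were red across both FGF groups, Itga7, Itga8 and Lama1 were blue in nearly all tumors, and sgTrp53+MYC replicate 2 differed from the other sgTrp53+MYC libraries in Itga2, Itga3, Itga6, Itgb4 and Itgb7.

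Against sgTrp53+MYC tumors, the FGF-driven tumors expressed more of the alpha5 chain of the fibronectin receptor and of the alpha9 and beta5 chains, and 6 of the 31 tested members (19.4%) were called higher, namely Itga5, Itga9, Itgad, Itgb3, Itgb5 and Lama1. The share of all tested genes called higher was 11.6%. Another 3 members (9.68%), Itga2, Itga3 and Lamb3, were called lower, against 12.1% of all tested genes (23.7% in either direction), and the remaining 22 did not pass. With DESeq2's size factors the split was 5 higher (16.1%) and 4 lower (12.9%), against 10.5% and 13.6% of all tested genes. The median log2 fold change was 0.40 over the members and -0.023 over all tested genes. Only Itgb5 showed no overlap between the 10 FGF-driven and the 5 sgTrp53+MYC tumors, which is 3.23% of the members against 3.28% of all tested genes in that direction, and 0 members were lower without overlap, against 2.42%.

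Itga5 encodes the alpha5 chain that pairs with beta1 as the main fibronectin receptor. Its levels were 71.2, 108, 115, 99 and 45.6 CPM in Aldafermin+MYC, 67.8, 93.4, 97.8, 79.4 and 74 in FGF19+MYC and 19.2, 31.5, 41.8, 51.1 and 38.1 in sgTrp53+MYC tumors. The groups overlapped through Aldafermin+MYC replicate 5, which fell below sgTrp53+MYC replicate 4, while the other 9 FGF-driven tumors lay above every sgTrp53+MYC tumor. The difference was 1.23 ± 0.23 (n = 10 and 5, adjusted p = 0.00106, edgeR), a 2.34-fold change.

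Itgb5 encodes the beta5 chain, which pairs with alphav to bind vitronectin. The 10 FGF-driven tumors had 137, 151, 178, 159.9 and 99.8 CPM with Aldafermin and 90.7, 155, 143, 141 and 158 CPM with FGF19. The sgTrp53+MYC tumors had 55.6, 57.3, 77.7, 84.6 and 70.5 CPM, all below the lowest FGF-driven tumor, FGF19+MYC replicate 1. The difference of 1.03 ± 0.15 (2.04-fold, adjusted p = 1.38e-04) was the one with the smallest adjusted p among the members in this comparison.

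Itga9 encodes the alpha9 chain, a partner of beta1 that binds tenascin C, osteopontin and VCAM1. It stood at 13, 11.4, 33.6, 19.2 and 10.02 CPM in Aldafermin+MYC, 11.2, 16.1, 17.4, 16 and 21.8 in FGF19+MYC and 5.88, 5.72, 11.6, 9.76 and 8.9 in sgTrp53+MYC tumors. Only the highest sgTrp53+MYC library reached into the range of the FGF-driven tumors, and the difference was 1.02 ± 0.26 (2.03-fold, adjusted p = 0.00759). The 3 calls on Itga5, Itga9 and Itgb5 held without sgTrp53+MYC replicate 2, at 1.18 (adjusted p = 0.00418), 0.91 (adjusted p = 0.0245) and 0.97 (adjusted p = 7.14e-04) respectively.

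Because Itga5 and Itgb5 were the members with the smallest adjusted p, their upstream sequences are shown, from RefSeq on build GRCm38.p6, which is not the build of the counts. Each is the 250 bases before the annotated start in 5′ to 3′ direction of the gene, with the GC box GGGCGG or its reverse complement CCGCCC in capitals.
Itga5, chr15:103366792-103367041, minus strand: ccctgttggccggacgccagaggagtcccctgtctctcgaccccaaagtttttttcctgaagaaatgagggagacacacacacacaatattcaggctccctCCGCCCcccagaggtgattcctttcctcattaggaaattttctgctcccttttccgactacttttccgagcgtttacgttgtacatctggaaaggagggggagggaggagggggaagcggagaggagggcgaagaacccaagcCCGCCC
Itgb5, chr16:33829415-33829664, plus strand: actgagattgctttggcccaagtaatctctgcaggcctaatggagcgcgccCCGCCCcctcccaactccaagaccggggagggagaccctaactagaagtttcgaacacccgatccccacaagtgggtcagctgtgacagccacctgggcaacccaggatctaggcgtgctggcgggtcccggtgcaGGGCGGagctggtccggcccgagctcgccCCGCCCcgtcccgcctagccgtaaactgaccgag
The Itga5 window holds 2 matches and that of Itgb5 holds 3. Of the 23 members with a promoter entry, 4 (Itga9, Itgav, Itgb7 and Lamb3) have a window that begins more than 1000 bases inside the gene and were left out here. Among the other 19, 8 hold this motif on either strand (Itga3, Itga4, Itga5, Itgam, Itgb1, Itgb5, Lama5 and Lamb1), and 32.7% of the windows of 24926 symbols chosen in the same way hold it. The E box CACGTG, a sequence bound by MYC, was found in 0 of the 19 windows and in 6.05% of all these windows, and the AP-1 site TGAGTCA in 1, that of Itgax, and in 4.45% of all, both strands searched. On GRCm39, in the GENCODE M39 annotation, Itga5 spans chr15:103252713-103275270, Itga9 spans chr9:118435722-118730072 and Itgb5 spans chr16:33649988-33771137.

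The other 3 genes called higher were less expressed. Itgb3, the beta3 chain of the vitronectin receptor and of the platelet fibrinogen receptor, had 2.89, 2.46, 7.84, 4.23 and 2.36 CPM in Aldafermin+MYC, 4.91, 4.3, 6.87, 7.72 and 5.55 in FGF19+MYC and 1.75, 2.27, 3.53, 3.84 and 2.15 in sgTrp53+MYC tumors. The FGF19+MYC tumors were all above the sgTrp53+MYC tumors, whereas 3 of the Aldafermin+MYC tumors lay within their range. The difference was 0.83 ± 0.30 with an adjusted p of 0.049, and it was 0.77 with an adjusted p of 0.102 without sgTrp53+MYC replicate 2. Of 31 alternatives 20 lost this call, 13 of the 20 fits that leave out 1 library among them, as well as the likelihood ratio test (adjusted p = 0.0622), DESeq2's size factors (adjusted p = 0.0528) and total counts (adjusted p = 0.081).

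Itgad, which encodes the alphaD chain of a beta2 integrin of macrophages, had 9.04, 15.1, 13.8, 10.8 and 10.2 CPM in Aldafermin+MYC, 13.9, 4.59, 5.21, 1.82 and 3.09 in FGF19+MYC and 0.494, 1.01, 2.12, 3.72 and 5.6 in sgTrp53+MYC tumors. The Aldafermin+MYC tumors were all above the sgTrp53+MYC tumors, and 4 of 5 FGF19+MYC tumors lay within their range. The difference was 1.66 ± 0.58 (adjusted p = 0.0447), and without sgTrp53+MYC replicate 2 it was 1.45 (adjusted p = 0.0977). This call was lost in 16 of 31 alternatives, 11 of them with 1 library left out. Lama1, the alpha chain of laminin-111 of early embryonic basement membranes, was near 1 CPM, with 3.42, 0.124, 0.694, 1.0 and 0.561 in Aldafermin+MYC, 0.391, 0.91, 1.17, 1.38 and 2.39 in FGF19+MYC and 0.231, 0.21, 0.531, 0.517 and 0.23 in sgTrp53+MYC tumors. The ranges overlapped, the difference was 1.80 ± 0.55 (adjusted p = 0.0235), and without sgTrp53+MYC replicate 2 it was 1.66 (adjusted p = 0.0569), and 4 of 31 alternatives lost the call.

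**Figure D2:**
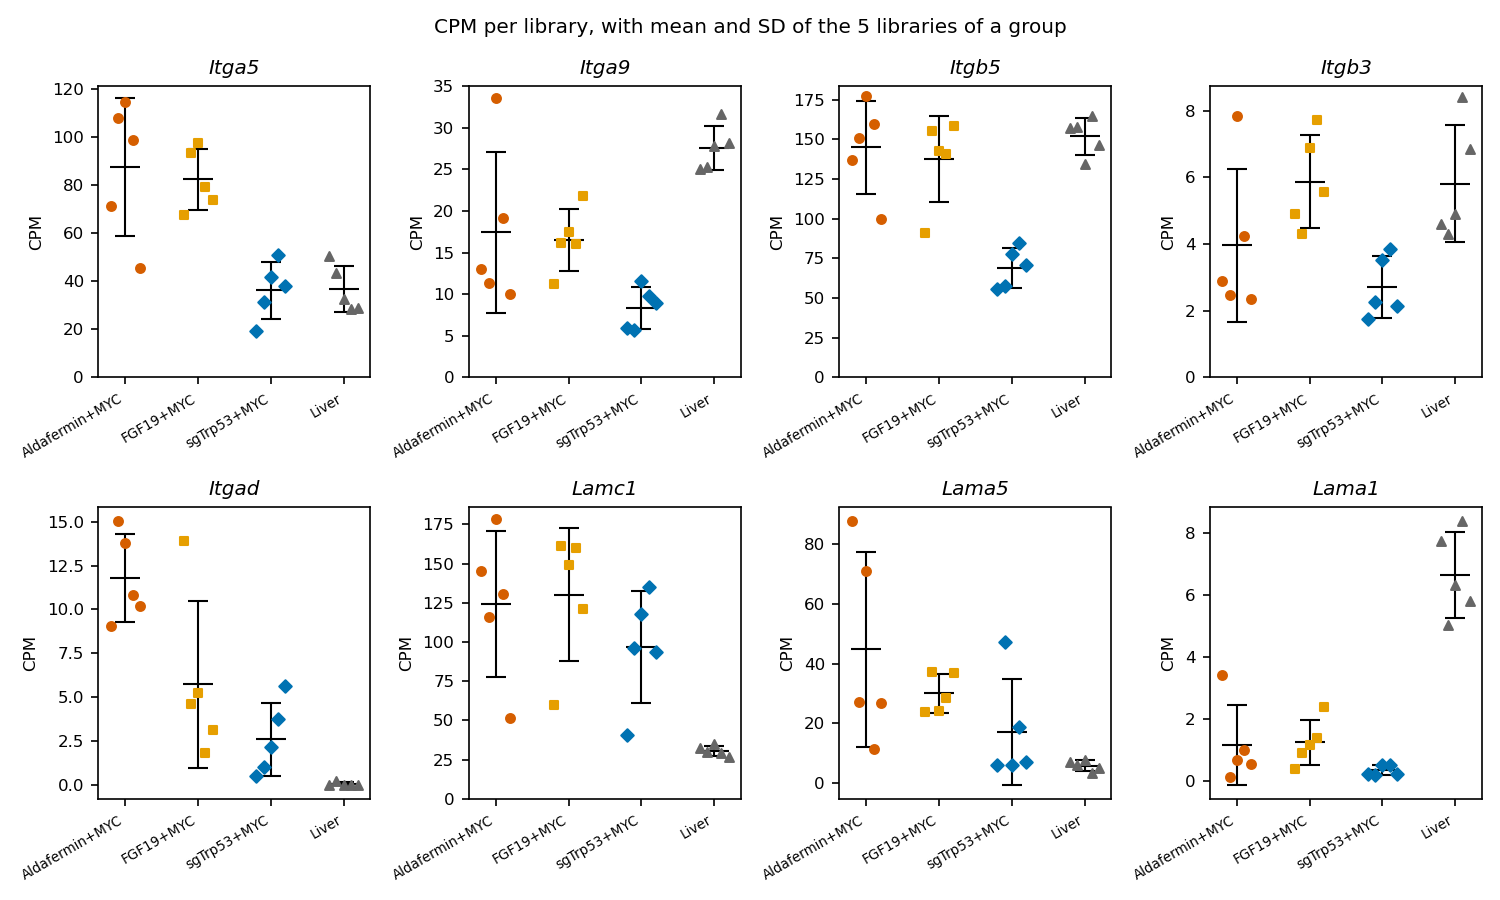
CPM of 8 members in each library (points) with the mean and SD of the 5 libraries of a group (bar and whiskers). Itgb5 separates all 10 FGF-driven tumors from the sgTrp53+MYC tumors, and Lamc1 separates all 15 tumors from the livers.

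Of the members called lower, Itga2 and Itga3 turned on a single library. Itga2, the alpha chain of a collagen receptor, had 0.704, 0.595, 2.24, 0.885 and 0.926 CPM in Aldafermin+MYC, 0.335, 0.728, 1.53, 2.17 and 1.34 in FGF19+MYC and 0.609, 31.5, 1.13, 1.29 and 1.03 in sgTrp53+MYC tumors. Apart from the second sgTrp53+MYC library, the 3 groups overlapped throughout between 0.335 and 2.24 CPM. The log2 fold change was -2.63 ± 0.74 (adjusted p = 0.0154) with all libraries and 0.17 (95% interval -0.83 to 1.17, adjusted p = 0.829) without that library.

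Itga3, the alpha chain of an epithelial laminin receptor, had 3.4, 2.7, 10.2, 3.54 and 3.42 CPM in Aldafermin+MYC, 2.9, 4.66, 3.86, 3.32 and 6.82 in FGF19+MYC and 1.37, 119, 1.94, 2.41 and 6.37 in sgTrp53+MYC tumors. The log2 fold change was -2.55 ± 0.73 (adjusted p = 0.0171) with all libraries, and without sgTrp53+MYC replicate 2 it had the opposite sign, 0.57 (95% interval -0.25 to 1.38, adjusted p = 0.324). Lamb3, the beta chain of laminin-332, had 1.6, 2.21, 4.62, 2.19 and 2.75 CPM in Aldafermin+MYC, 2.12, 2.11, 1.89, 2.02 and 1.58 in FGF19+MYC and 1.78, 6.46, 3.79, 4.26 and 6.8 in sgTrp53+MYC tumors. It was lower in the FGF-driven tumors, at -1.02 ± 0.28 (adjusted p = 0.0138), and without sgTrp53+MYC replicate 2 at -0.87 (adjusted p = 0.0467). Lamb3 shares its locus with Hsd11b1 and G0s2 on the opposite strand, which averaged 295 and 112 CPM against 3.85 for Lamb3. The strand setting of the counting is not given in the sources used here. Whether reads of Lamb3 were fully separated from those of Hsd11b1 and G0s2 is therefore not known. The same holds for Itgb4, which overlaps Galk1 (336 against 1.05 CPM), Lama5, which overlaps Adrm1 (109 against 24.5 CPM), Lamb1, which overlaps Dld (203 against 24.8 CPM), and for Itga1 and Itga2, which overlap Mocs2 (67 against 21.7 and 2.42 CPM), all on the opposite strand. Itga1 also overlaps Pelo on the same strand (25.9 against 21.7 CPM), where the strand setting makes no difference.

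Several other chains were also highest in sgTrp53+MYC replicate 2. Itga6, the alpha chain of the other epithelial laminin receptor, had 6.98, 95, 23.5, 14.7 and 11.8 CPM in the 5 sgTrp53+MYC libraries. Itgb4, its hemidesmosomal partner, had 0.0824, 5.88, 0.334, 0.204 and 0.184 CPM, and Itgb7, a leukocyte chain, had 4.33, 34.4, 4.79, 3.21 and 3.1 CPM. The summed leukocyte markers of replicate 2 were the lowest of the group, at 86.9 CPM, and which cells hold its Itgb7 reads was not tested. Lama3 and Lamb3, alpha and beta chains of epithelial laminin, had 0.247, 0.993, 0.715, 0.762 and 0.783 and 1.78, 6.46, 3.79, 4.26 and 6.8 CPM, with replicate 2 close to the other libraries and, for Lamb3, below replicate 5. Lama5, Lamb1 and Lamb2 were also highest in this library, at 47.4, 39.8 and 31.3 CPM.

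The summed level of the 8 cholangiocyte and progenitor markers was 334 CPM in that library and 8.63 to 25.7 CPM in the other 4 sgTrp53+MYC libraries. Keratin 19 was at 191 CPM, keratin 7 at 80.9, Epcam at 22.2 and Sox9 at 18.3 CPM, against at most 2.33, 0.265, 0.715 and 1.14 CPM elsewhere in the group. Cftr was near 0 at 0.0700 CPM. The part of cells with these markers in the integrin and laminin levels was not tested. Without this library, 5 members were called higher in FGF-driven than in sgTrp53+MYC tumors (Itga5, Itga9, Itgb4, Itgb5 and Lama5, 16.1% against 10.4% of all 14253 genes then tested) and 1 lower (Lamb3, 3.23% against 10.6%). Itgb4 moved from -0.96 (adjusted p = 0.368) to 1.74 (adjusted p = 0.0218), and Lama5 from 1.11 (adjusted p = 0.114) to 1.96 (adjusted p = 0.00633).

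**Figure D3:**
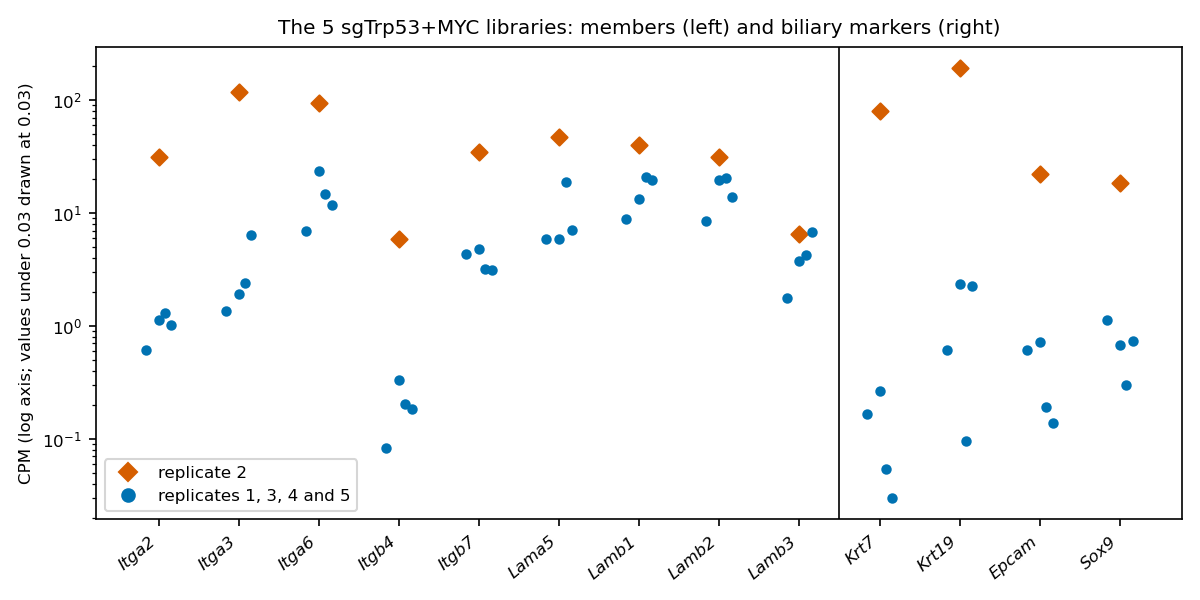
CPM on a log axis of 9 members (left) and 4 biliary markers (right) in the 5 sgTrp53+MYC libraries, with values under 0.03 drawn at 0.03. Replicate 2 (diamonds) lies above the other 4 libraries (circles) for 8 of the 9 members and the 4 markers, with Lamb3 as the exception.

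The other members that did not pass in this comparison included the shared chains. Itgb1, the common partner of most matrix-binding alpha chains, averaged 258 ± 60.1 CPM (SD, n = 5) in Aldafermin+MYC, 224 ± 25.7 in FGF19+MYC, 192 ± 34.4 in sgTrp53+MYC tumors and 236 ± 13.2 in livers. Its difference between FGF-driven and sgTrp53+MYC tumors was 0.32 ± 0.14 (adjusted p = 0.0996), and it passed only with the correction for GC content and exon length (0.44, adjusted p = 0.0307). Itgav, the shared partner of beta3, beta5, beta6 and beta8, had 20.6 ± 3.75, 21.5 ± 6.74, 20.3 ± 3.47 and 27.4 ± 4.59 CPM in the same order of groups. It was the member closest to equal levels among those above 10 CPM in every library, at 0.056 ± 0.18 (95% interval -0.33 to 0.44). The beta1 chain exceeded the beta5 chain in every group, and per kilobase of exon Itgb1 held 57.1% ± 9.78 of the summed beta chain level in Aldafermin+MYC, 56.7% ± 7.22 in FGF19+MYC, 63.2% ± 6.06 in sgTrp53+MYC tumors and 59% ± 2.64 in livers. Itgb5 came next, with 27.5% ± 6.16, 29.2% ± 4.64, 19.5% ± 3.99 and 32.1% ± 2.27.

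Aldafermin and FGF19, which differ at the amino terminus, were both expressed from plasmids, for which the labels give no dose, and formed the 1 pair of related agents. None of the 31 members was called (0 higher and 0 lower), as was none of all 14333 tested genes (0%). At an unadjusted p under 0.05 there were 3 members (9.68%) against 7.31% of all tested genes, and DESeq2 and edgeR's likelihood ratio test called 1 member each, Lamb1. Over all tested genes, DESeq2 called 73 higher and 23 lower and the likelihood ratio test 59 higher and 12 lower. The differences ranged from -1.16 to 1.72, with 21 positive and 10 negative, and the 95% intervals had a margin of 0.33 to 1.91 on either side, with a median of 0.98. In 8 members (Itga1, Itga2b, Itga5, Itga9, Itgav, Itgb1, Itgb5 and Lamc1) the interval lay within 1 log2 unit of 0. No member had separate groups, against 1.07% of tested genes higher and 0.391% lower without overlap.

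Lamb1, the beta chain of laminin-111, laminin-411 and laminin-511, had the smallest p in this comparison. It stood at 109, 13.4, 75.1, 22 and 28.4 CPM in Aldafermin+MYC and 8.43, 17.6, 14.2, 19 and 17.5 in FGF19+MYC tumors. Aldafermin+MYC replicates 1 and 3 were high, replicates 4 and 5 were just above the FGF19+MYC tumors and replicate 2 was within their range. The difference was 1.69 ± 0.47 (n = 5 and 5, unadjusted p = 0.00191, adjusted p = 0.297 in edgeR's quasi-likelihood test). It was 1.66 with an adjusted p of 0.043 in DESeq2 and 1.69 with an adjusted p of 0.0233 in the likelihood ratio test.

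Lama4, the alpha chain of endothelial laminin-411, had 9.86, 7.37, 25.7, 12 and 6.82 CPM in Aldafermin+MYC and 3.07, 8.56, 4.04, 5.25 and 6.47 in FGF19+MYC tumors, with a difference of 1.17 ± 0.39 (adjusted p = 0.408, edgeR). Itgam, the alphaM chain of neutrophils and macrophages, had 0.704, 1.44, 20.1, 3.46 and 3.45 and 0.837, 2.33, 1.84, 1.64 and 2.18 CPM, with a difference of 1.72 ± 0.62 (adjusted p = 0.465). Both ranges overlapped, and Aldafermin+MYC replicate 3 was the highest tumor for each. Without that library the differences were 0.72 (adjusted p = 0.785) and 0.35 (adjusted p = 0.985). Lama2, of muscle and nerve laminin-211, had 5.81, 1.36, 9.31, 5.54 and 2.5 CPM in Aldafermin+MYC and 1.62, 3.39, 2.92, 2.11 and 3.55 in FGF19+MYC tumors (0.85 ± 0.42, adjusted p = 0.714). Itgax, the alphaX chain of dendritic cells and macrophages, had 4.81, 7.0, 22.5, 9.999 and 5.22 and 2.07, 7.65, 4.26, 5.16 and 7.17 CPM (0.91 ± 0.48, adjusted p = 0.756). Both were again highest in Aldafermin+MYC replicate 3. This library also had the highest summed leukocyte markers of its group, 459 CPM against 131 to 295 in the other 4, and the highest summed stellate cell and fibroblast markers, 334 CPM against 60.7 to 224, and the part of these cells in the members' levels was not tested.

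**Figure D4:**
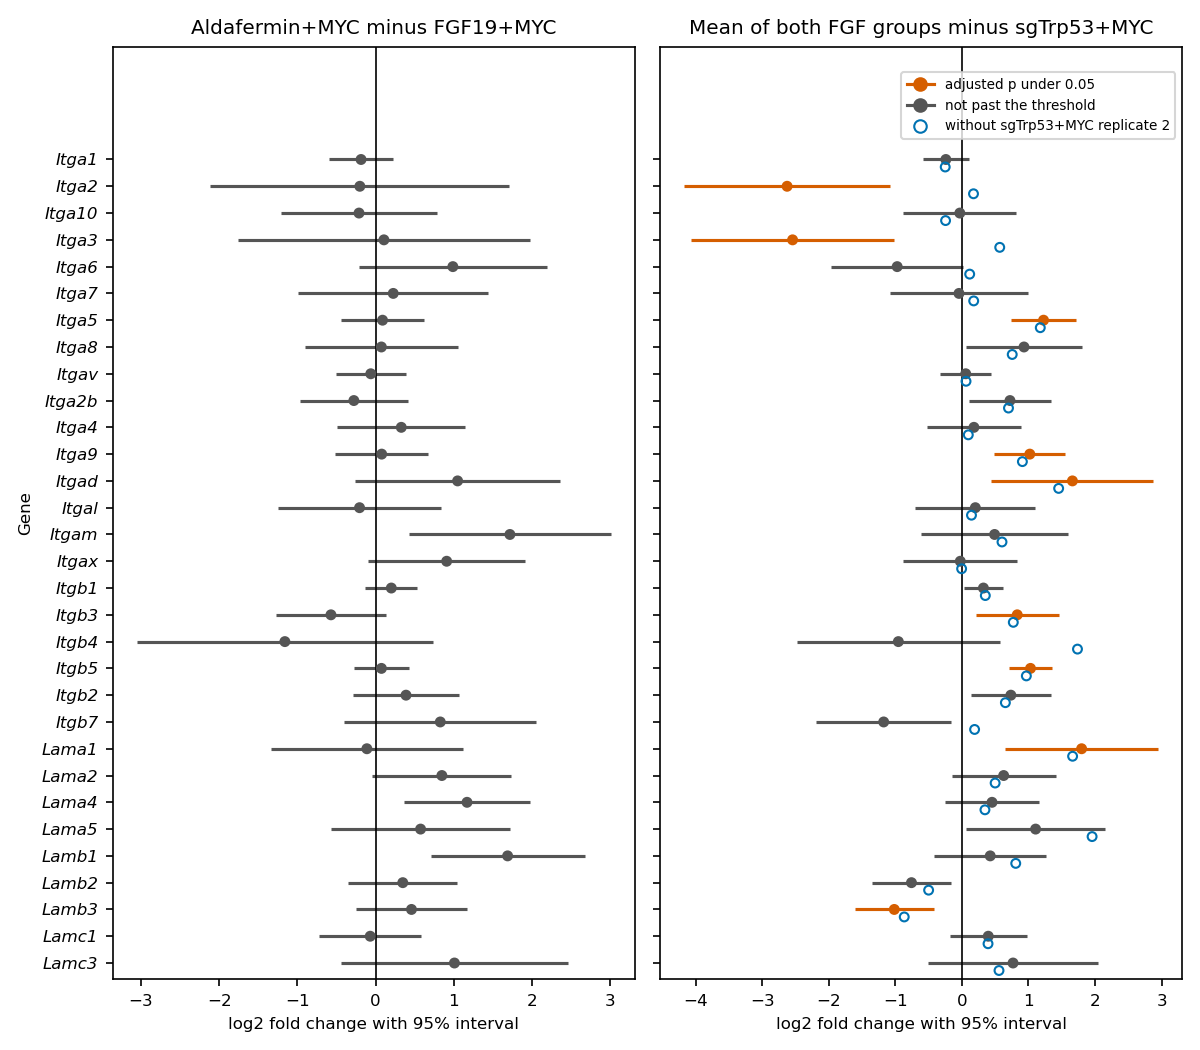
Log2 fold changes with 95% intervals of the 31 tested members for Aldafermin+MYC minus FGF19+MYC (left) and for the mean of both minus sgTrp53+MYC (right), orange where the adjusted p is under 0.05, with open circles for the fit without sgTrp53+MYC replicate 2. On the left 0 members pass, and on the right Itga2, Itga3 and Itgb4 are among the members that change sign when that library is left out.

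Compared with livers, the FGF-driven tumors had more of the laminin chains alpha5 and gamma1 and less of laminin alpha1 and gamma3. Of the 31 members, 8 (25.8%) were called higher, against 39.2% of all tested genes, namely Itga5, Itga6, Itgad, Itgax, Itgb2, Lama5, Lamb1 and Lamc1. Another 10 (32.3%) were called lower, against 34.5% of all tested genes, namely Itga1, Itga2b, Itga3, Itga7, Itga8, Itga9, Itgal, Lama1, Lamb3 and Lamc3. In either direction 18 members (58.1%) were called, against 73.7% of all tested genes. The sgTrp53+MYC tumors, compared with the same livers, had 8 members higher (25.8%, against 36.9% of all tested genes) and 9 lower (29.0%, against 33% of all tested genes), or 17 in either direction (54.8%, against 69.9%). The higher members were Itga2, Itga6, Itgad, Itgax, Itgb7, Lama5, Lamb2 and Lamc1, and the lower ones Itga2b, Itga7, Itga8, Itga9, Itgal, Itgb3, Itgb5, Lama1 and Lamc3. The median log2 fold change of the members was 0.023 in FGF-driven and -0.022 in sgTrp53+MYC tumors, against 0.096 and 0.071 over all tested genes.

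Between FGF-driven tumors and livers, 4 members were higher (12.9%) and 6 lower (19.4%) without overlap, against 28.5% and 25.7% of all tested genes, and between sgTrp53+MYC tumors and livers 2 were higher (6.45%) and 9 lower (29.0%), against 28.8% and 27.4%. These splits depend on the scaling, since scaling to total counts in place of TMM moved the median of all tested genes by 0.84 and 0.88 in the comparisons with livers. On that scale 17 members were higher (54.8%, against 61.1% of all tested genes) and 3 lower (9.68%, against 18.3%) in FGF-driven tumors, and 15 were higher (48.4%, against 59.5%) and 6 lower (19.4%, against 16.9%) in sgTrp53+MYC tumors. On total counts the calls against livers in FGF-driven tumors were lost for Itga8 (-0.87, adjusted p = 0.0604), Lamc3 (-1.27, adjusted p = 0.0564) and Lamb3 (-0.59, adjusted p = 0.0827). The comparisons share the 5 livers, so they are not independent of each other.

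Among the laminins, Lamc1, the gamma chain of nearly all common laminin trimers, had 145, 116, 178, 130.3 and 51.5 CPM in Aldafermin+MYC, 59.7, 161, 149, 160.3 and 121 in FGF19+MYC and 40.5, 96.3, 118, 135 and 93.9 in sgTrp53+MYC tumors, and 32.6, 29.8, 34.7, 29.3 and 26.4 in livers. Every tumor lay above every liver, and the log2 fold change was 2.06 ± 0.30 for FGF-driven (adjusted p = 4.73e-06) and 1.66 ± 0.32 for sgTrp53+MYC tumors (adjusted p = 1.37e-04). Lama5, the alpha chain of laminin-511 found in most adult epithelial basement membranes, had 87.9, 27.1, 70.9, 11.4 and 26.7 CPM in Aldafermin+MYC, 23.7, 37.4, 24.1, 28.5 and 36.7 in FGF19+MYC and 5.95, 47.4, 5.93, 18.9 and 7.08 in sgTrp53+MYC tumors, and 7.03, 6.16, 7.77, 3.35 and 4.98 in livers. The FGF-driven tumors were all above the livers, whereas 3 sgTrp53+MYC tumors were within the livers' range.

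The log2 fold change of Lama5 over livers was 2.65 ± 0.55 for FGF-driven (adjusted p = 2.50e-04) and 1.54 ± 0.57 for sgTrp53+MYC tumors (adjusted p = 0.0215). Without sgTrp53+MYC replicate 2 the latter was 0.69 (adjusted p = 0.204). Lamb1 had 15.2, 12.5, 10.7, 16.7 and 14.2 CPM in livers, overlapping the tumors of each group, and its difference was 0.99 ± 0.42 (adjusted p = 0.0386) in FGF-driven and 0.57 ± 0.46 (adjusted p = 0.28) in sgTrp53+MYC tumors. The first call was lost in 11 of 31 alternatives, with the replicate number as a block (adjusted p = 0.068) and in 10 of the 20 fits that leave out 1 library. Lamb2, the alternative beta chain, was called higher in sgTrp53+MYC tumors, with 8.58, 31.3, 19.8, 20.6 and 14 CPM against 13.5, 10.9, 9.36, 7.44 and 10.4 in livers (0.87 ± 0.34, adjusted p = 0.0275). This call was lost without sgTrp53+MYC replicate 2 (0.61, adjusted p = 0.109).

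Lama1 had 7.75, 5.02, 6.32, 8.4 and 5.82 CPM in livers, above every tumor. It was lower, at -2.46 ± 0.48 in FGF-driven (adjusted p = 1.30e-04) and -4.25 ± 0.65 in sgTrp53+MYC tumors (adjusted p = 1.03e-05). Lamc3, the gamma chain of laminins outside the classical sheet, had 24.4, 14.1, 10.7, 3.48 and 9.24 CPM in livers, 2.45, 0.447, 7.47, 7.35 and 2.22 in Aldafermin+MYC, 0.502, 1.97, 1.12, 1.12 and 5.1 in FGF19+MYC and 0.939, 0.616, 2.99, 1.06 and 2.61 in sgTrp53+MYC tumors. Liver replicate 4 lay within the range of the FGF-driven tumors but above all sgTrp53+MYC tumors. The differences were -2.14 ± 0.57 (adjusted p = 0.00218) and -2.91 ± 0.73 (adjusted p = 0.00147).

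Expressed per kilobase of exon, so that chains can be set beside each other, the makeup of the laminin alpha class differed between tumors and livers, as a description and without a test. Lama5 held 71.8% ± 16.4 (SD, n = 5) of the summed alpha chains in Aldafermin+MYC, 79.8% ± 3.46 in FGF19+MYC and 61.6% ± 22.5 in sgTrp53+MYC tumors, and 26.1% ± 7.64 in livers. In livers Lama1 held 34.6% ± 4.69 and Lama4 29.3% ± 2.31, while in tumors Lama1 held 0.428% to 4.48%, 1.67% to 5.95% and 0.47% to 3.54% in the order Aldafermin+MYC, FGF19+MYC and sgTrp53+MYC. Lamb1 and Lamb2 together held most of the beta class in all groups, with Lamb1 at 60.1% ± 14.7 in Aldafermin+MYC, 43.1% ± 8.06 in FGF19+MYC, 33.5% ± 5.24 in sgTrp53+MYC tumors and 35.1% ± 7.67 in livers. Lamb2 held 38.1% to 57.3% in FGF19+MYC tumors and 37.6% to 47.8% in livers, with the higher mean in both groups. Lamb3 held 14.5% to 23.6% in livers. With the longest transcript as length in place of all exons, the livers' Lama1 share was 25.8% and their Lama4 share 43.0%. The Lamb1 share was then 55.1% in FGF19+MYC tumors and 45.9% in livers, against 38.1% and 35.5% for Lamb2. Hence the order of alpha chains in livers and of beta chains in livers and FGF19+MYC tumors depends on the length used.

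**Figure D5:**
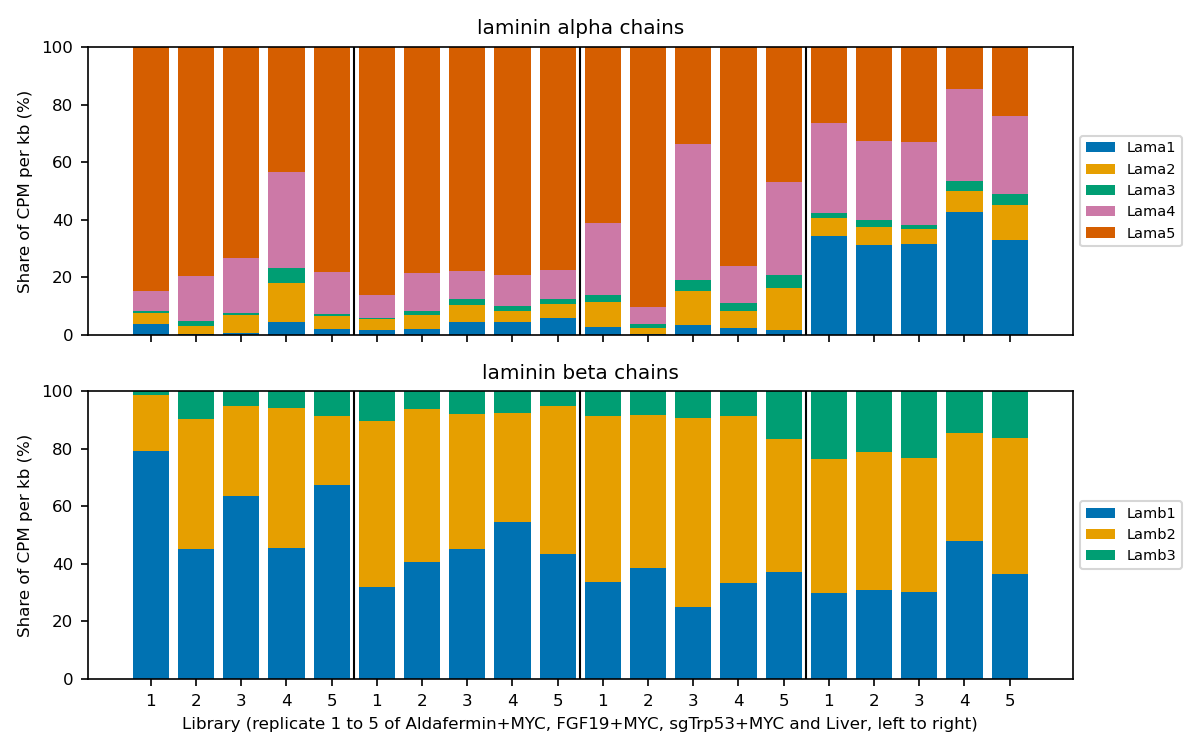
Share of each chain in the summed CPM per kilobase of exon of the laminin alpha and beta classes, in percent, for the 20 libraries in the order Aldafermin+MYC, FGF19+MYC, sgTrp53+MYC and Liver. Lama5 takes a larger mean share in each tumor group than in livers, and Lama1 a smaller one.

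Among the laminin-binding integrins, Itga6 had 31.2, 8.91, 32.1, 9.69 and 27.1 CPM in Aldafermin+MYC and 3.52, 12.5, 9.52, 14.9 and 14.3 in FGF19+MYC tumors, and 7.46, 8.58, 7.2, 5.33 and 5.26 in livers. FGF19+MYC replicate 1 was below every liver and the other 9 FGF-driven tumors were above, with a difference of 1.19 ± 0.53 (adjusted p = 0.0478). This call was lost in 14 of 31 alternatives, among them DESeq2's size factors (adjusted p = 0.0579) and 12 fits that leave out 1 library. In sgTrp53+MYC tumors the difference was 2.17 ± 0.60 (adjusted p = 0.0032), and 1.08 (adjusted p = 0.0359) without replicate 2. Itga7, a laminin receptor of muscle and vessel walls, had 14.1, 16.1, 16.4, 10.4 and 15 CPM in livers, 0.607, 1.44, 4.75, 4.08 and 0.673 in Aldafermin+MYC, 0.949, 2.08, 1.39, 2.26 and 3.09 in FGF19+MYC and 1.52, 3.46, 4.58, 0.708 and 0.691 in sgTrp53+MYC tumors. Every tumor was below every liver, at -2.76 ± 0.48 (adjusted p = 3.36e-05) and -2.71 ± 0.60 (adjusted p = 5.12e-04). Itga3 had 17.1, 17.2, 13.3, 12.1 and 15.7 CPM in livers, above all FGF-driven tumors and above 4 of 5 sgTrp53+MYC tumors. Its difference was -1.75 ± 0.74 (adjusted p = 0.039) in FGF-driven tumors, a call lost in 14 of 30 alternatives, among them total counts (-0.88, adjusted p = 0.284) and 12 fits that leave out 1 library. In sgTrp53+MYC tumors it was 0.80 ± 0.88 (adjusted p = 0.431) with and -2.32 (adjusted p = 2.13e-04) without replicate 2.

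Among the RGD-binding chains, Itga5 had 50.4, 43.4, 32.6, 28.3 and 29 CPM in livers. It was higher in FGF-driven tumors by 1.21 ± 0.23 (adjusted p = 1.16e-04), while sgTrp53+MYC tumors differed from livers by -0.015 ± 0.26 (95% interval -0.55 to 0.52). The reverse held for Itgb5, with 157, 158, 134, 165 and 146 CPM in livers. FGF-driven tumors differed from livers by -0.11 ± 0.15 (95% interval -0.41 to 0.20), and sgTrp53+MYC tumors were lower, at -1.14 ± 0.17 (adjusted p = 8.07e-06), with no overlap. On total counts the Itgb5 call was lost (-0.24, adjusted p = 0.301). Itga8, a receptor for nephronectin made by stellate cells and smooth muscle, had 9.47, 7.41, 9.59, 12.5 and 14 CPM in livers, 1.94, 0.819, 6.38, 5.77 and 1.35 in Aldafermin+MYC, 2.01, 4.3, 2.33, 1.91 and 4.82 in FGF19+MYC and 1.81, 0.798, 2.23, 2.0 and 1.43 in sgTrp53+MYC tumors. It was lower in every tumor than in every liver (-1.74 ± 0.39, adjusted p = 4.76e-04, and -2.68 ± 0.49, adjusted p = 7.95e-05). The summed stellate cell and fibroblast markers, all 10 tested, ranged from 333 to 471 CPM in livers and from 57.4 to 334 CPM over the tumors. They did not move together. Lrat, Reln, Dcn, Pdgfra and Hand2 were lower in every tumor than in every liver, and Des, Pdgfrb, Rgs5 and Lum overlapped. Acta2 went the other way, at 1.32 to 2.87 CPM in livers and 10.8 to 155 CPM over the tumors. The part of these cells in the level of Itga8 was not tested.

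Itga9, at 25, 25.3, 27.8, 31.6 and 28.2 CPM in livers, was lower in FGF-driven tumors, at -0.70 ± 0.24 (adjusted p = 0.0131), and in sgTrp53+MYC tumors, at -1.72 ± 0.29 (adjusted p = 3.12e-05), and on total counts the first difference turned to 0.17 (adjusted p = 0.589). Itga1, the alpha chain of a collagen and laminin receptor of sinusoidal and stromal cells, was lower in FGF-driven tumors, at -0.43 ± 0.17 (adjusted p = 0.0247), and on total counts this turned to 0.43 (adjusted p = 0.0694). Itga2b, the alpha chain of the platelet fibrinogen receptor, was lower, at -1.59 ± 0.27 (adjusted p = 3.14e-05) and -2.32 ± 0.34 (adjusted p = 6.02e-06), with 3.84 to 4.51 CPM in livers. The platelet markers were low throughout, with 1 of 7 tested and a summed level of 0.646 to 13.5 CPM over tumors and 0.883 to 2.73 CPM over livers. Itgb3 was lower in sgTrp53+MYC tumors than in livers, at -1.10 ± 0.34 (adjusted p = 0.00696) and differed by -0.27 ± 0.29 (adjusted p = 0.407) in FGF-driven tumors. The Itgb3 call in sgTrp53+MYC tumors was lost on total counts (-0.19, adjusted p = 0.635) and with no filter (-0.81, adjusted p = 0.055). Itga2, at 0.789, 0.183, 0.0883, 0.273 and 0.12 CPM in livers, was called higher in sgTrp53+MYC tumors with (4.71, adjusted p = 7.90e-04) and without replicate 2 (1.91, adjusted p = 0.00908), while in FGF-driven tumors the difference was 2.08 ± 0.97 (adjusted p = 0.0585). The livers held 25 Itga2 reads in all, so the size of these differences is uncertain.

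The leukocyte integrins went in both directions. Itgad had 0, 0.22, 0, 0 and 0 CPM in livers, which is 6 reads in 1 liver and 0 in the other 4, while all 15 tumors held at least 0.494 CPM. The gene was called higher in FGF-driven (adjusted p = 7.42e-07) and in sgTrp53+MYC tumors (adjusted p = 2.67e-05), and no fold is given because it would rest on those 6 reads. Itgax, its neighbor on chromosome 7 at chr7:127728668-127749829, had 1.94, 1.87, 1.24, 2.73 and 1.87 CPM in livers and 2.17, 7.81, 13.9, 3.83 and 9.09 in sgTrp53+MYC tumors. It was higher by 1.91 ± 0.46 (adjusted p = 0.00105) in FGF-driven and by 1.94 ± 0.50 (adjusted p = 0.00204) in sgTrp53+MYC tumors. Itgb2, the shared beta2 chain, was higher in FGF-driven tumors by 1.12 ± 0.30 (adjusted p = 0.0022), with 14.8 to 65 CPM in Aldafermin+MYC and 17.3 to 31.5 in FGF19+MYC tumors against 10.6 to 13.4 in livers.

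By contrast, Itgal, the alpha chain of LFA-1 of lymphocytes and Kupffer cells, had 21.7, 17.1, 20.1, 18.3 and 19.8 CPM in livers, above every tumor, and was lower, at -1.48 ± 0.41 (adjusted p = 0.00332) and -1.68 ± 0.51 (adjusted p = 0.00616). On total counts both Itgal calls were lost. Of the 12 leukocyte markers 10 were tested, and their summed level was 291 to 418 CPM in livers, 131 to 459 in Aldafermin+MYC, 143 to 259 in FGF19+MYC and 86.9 to 173 in sgTrp53+MYC tumors. These markers did not move together. The Kupffer cell marker Clec4f was at 136 to 189 CPM in livers and at 0 to 47.2 CPM over the tumors, with 0 in 1 Aldafermin+MYC tumor, whereas Ptprc ranged from 9.16 to 13.6 CPM in livers and from 6.75 to 26.0 CPM over the tumors. Over Aldafermin+MYC, FGF19+MYC and sgTrp53+MYC tumors and livers, Csf1r had medians of 36.1, 40.5, 20.7 and 102 CPM. The medians of Laptm5 were 97.3, 61.2, 35.7 and 35.5 CPM. Cd53 went up in Aldafermin+MYC tumors, at 14.7 to 35.7 CPM against 6.27 to 12.2 in livers. In FGF19+MYC (11.9 to 15.7) and sgTrp53+MYC tumors (7.34 to 15.8) it overlapped the livers. The part of leukocyte numbers in these levels was not tested. Itgb7 was called higher in sgTrp53+MYC tumors than in livers (1.80, adjusted p = 0.0121), and without replicate 2 the value was 0.43 (adjusted p = 0.31).

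Among the members that passed in none of the 4 comparisons, Itga4, the alpha4 chain of leukocytes, ranged over the 4 groups from 1.53 to 8.35 CPM and Itga10, a collagen receptor chain of cartilage, from 0.616 to 3.27 CPM. Among the untested members, Itga11, a collagen receptor chain of fibroblasts, reached 3.10 CPM in Aldafermin+MYC replicate 3 and at most 0.789 CPM in every other library. Lama3 reached at most 1.58 CPM, Itgb8 1.37 CPM, Itgae 1.22 CPM and Itgb6, an epithelial beta chain, 0.221 CPM in any of the 20 libraries.

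Other adhesion genes were followed as lists of linkers, ligands, basement membrane components and laminin receptors. Of 26 linkers and activators inside the cell, 1 was higher (3.85%) and 2 lower (7.69%) in FGF-driven than in sgTrp53+MYC tumors, against 11.6% and 12.1% of all tested genes. Fermt3, the kindlin of blood cells, was higher (0.83 ± 0.27, adjusted p = 0.0286), and Ptk2b, the kinase related to focal adhesion kinase (-0.97 ± 0.27, adjusted p = 0.0138), and Lims1, the PINCH adaptor (-0.26 ± 0.088, adjusted p = 0.0379), were lower. The Fermt3 call was lost in 7 and the Lims1 call in 13 of 31 alternatives. Against livers, 7 linkers were higher (26.9%) and 9 lower (34.6%) in FGF-driven tumors, where all tested genes had 39.2% and 34.5%, and 4 were higher (15.4%) and 11 lower (42.3%) in sgTrp53+MYC tumors, where all tested genes had 36.9% and 33%.

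Of the 5 genes listed as laminin receptors or their partners outside the integrins, 4 (80%) were higher in FGF-driven than in sgTrp53+MYC tumors, against 11.6% of all tested genes. They were Sdc1 (0.87 ± 0.17, adjusted p = 0.00131) and Sdc4 (0.76 ± 0.17, adjusted p = 0.00409), which are heparan sulfate proteoglycans, the tetraspanin Cd151, a partner of laminin-binding integrins (0.81 ± 0.17, adjusted p = 0.00256), and Bcam, a receptor for laminin alpha5 (1.05 ± 0.25, adjusted p = 0.00589). Sdc1, Sdc4 and Cd151 were nevertheless lower in both tumor types than in livers, although the Cd151 call in FGF-driven tumors was lost on total counts. Sdc1 stood at 509 ± 65.7 CPM in livers, 168 ± 39 in Aldafermin+MYC, 136 ± 23.5 in FGF19+MYC and 82.8 ± 21.3 in sgTrp53+MYC tumors. The laminin receptor Dag1 was the listed gene not called higher. It had nearly equal means of 132 ± 35.9 CPM in Aldafermin+MYC, 133 ± 12.9 in FGF19+MYC and 131 ± 42.0 in sgTrp53+MYC tumors, and 172 ± 20.4 in livers.

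Of 18 tested ligands outside the laminins, 4 were higher (22.2%, against 11.6% of all tested genes) in FGF-driven than in sgTrp53+MYC tumors and 1, Ltbp1, was called lower (5.56%, against 12.1%). The Ltbp1 call rested on sgTrp53+MYC replicate 4, at 22.1 CPM with the other 4 at 0.246 to 1.39 CPM, and its log2 fold change went from -2.77 ± 0.80 (adjusted p = 0.0172) to -0.036 (adjusted p = 0.974) without that library. Fn1, the fibronectin bound by alpha5beta1, was higher by 1.48 ± 0.32 (adjusted p = 0.00264), with 394 ± 163 CPM in Aldafermin+MYC, 389 ± 187 in FGF19+MYC and 141 ± 48.4 in sgTrp53+MYC tumors, and 2653 ± 639.6 in livers. Vcam1, the alpha4 and alpha9 ligand, was higher by 0.96 ± 0.22 (adjusted p = 0.00414) and Icam1, the beta2 integrin ligand, by 0.71 ± 0.16 (adjusted p = 0.00391). Against livers, 8 ligands were higher (44.4%) and 7 lower (38.9%) in FGF-driven tumors, where all tested genes had 39.2% and 34.5%. In sgTrp53+MYC tumors 8 were higher (44.4%) and 6 lower (33.3%), where all tested genes had 36.9% and 33%.

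Of 11 tested basement membrane components outside the laminins, 2 (18.2%, against 11.6% of all tested genes) were higher in FGF-driven than in sgTrp53+MYC tumors. They were agrin (Agrn, 1.32 ± 0.29, adjusted p = 0.0036) and perlecan (Hspg2, 0.88 ± 0.30, adjusted p = 0.0402), the latter a call lost in 16 of 31 alternatives. Npnt, nephronectin, the ligand of alpha8beta1, was lower, at -4.15 ± 0.51 (adjusted p = 2.70e-05), with 4.31 to 33.3 CPM in sgTrp53+MYC tumors against 0.346 to 1.04 in Aldafermin+MYC and 0.167 to 0.88 in FGF19+MYC tumors and 0.137 to 0.932 in livers. The lowest sgTrp53+MYC tumor thus lay above every library of the other groups. Replicate 2 was the one at 33.3 CPM, and without it the difference was -3.05 (adjusted p = 6.55e-05). Its receptor chain Itga8 differed between these tumors by 0.93 ± 0.42 (adjusted p = 0.115). Against livers, 6 of the 11 components were higher (54.5%) and 3 lower (27.3%) in FGF-driven tumors, where all tested genes had 39.2% and 34.5%. In sgTrp53+MYC tumors 5 were higher (45.5%) and 3 lower (27.3%), where all tested genes had 36.9% and 33%. The type IV collagen chain Col4a1 was higher in both, by 2.31 ± 0.42 (adjusted p = 5.96e-05) and 2.05 ± 0.45 (adjusted p = 4.60e-04), with 52.7 ± 13.6 CPM in livers.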

How the data were processed

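Polyadenylated RNA of 20 samples was sequenced as stranded paired-end libraries. The authors aligned the reads with HISAT2 to mm39 and counted them per gene with htseq-count on the RefSeq annotation (bcl2fastq 2.20.0.422 per the processing notes). The deposited values are raw counts in 2 tables, 1 of which holds only the sgTrp53+MYC libraries. The strand setting of the counting is not given in the sources used here. The 5 summary lines of htseq-count, 33.7% to 56.2% of the reads, were left out, and all sample columns were used.

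The filter required 1 CPM in 5 libraries and left 14333 genes. TMM factors and a single quasi-likelihood fit over the 4 groups came from edgeR 4.0.16 in R 4.3.3, with Benjamini-Hochberg adjusted p-values and calls under 0.05. The SE is the absolute log2 fold change divided by the square root of F, and intervals are at 95%. CPM values use TMM-scaled library sizes. Exon lengths, overlaps and GC content were taken from GENCODE M39 on GRCm39 and matched 37 of 37 members, and promoters from RefSeq (GRCm38.p6), with 23 of 37 members. Intervals and counts of reads cover the spread between these samples or counting error only. The fit was checked on simulated counts.

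For 1 member and 1 cell type marker, values are not reported here. The members and lists were chosen with earlier results of these data known. Values are printed per library for each member called between FGF-driven and sgTrp53+MYC tumors, the 4 highest and 4 lowest log2 fold changes against livers among called members with a group mean of at least 1 CPM, the 5 smallest p-values between Aldafermin+MYC and FGF19+MYC tumors, and Lama5, Lamb1 and Lamc1, with group means for Itgb1 and Itgav. Other values of members were chosen after they were seen. Of other adhesion lists, the 3 genes with the smallest adjusted p were named, and Bcam, Dag1, Ltbp1 and Col4a1 were chosen after their values were seen. The markers Alb, Cps1, Csf1r, Cd53 and Laptm5 were chosen in the same way. Alternatives were DESeq2 1.42.0, the likelihood ratio test, other scalings and filters, only the groups compared, the replicate number as a block, a correction for GC content and length, and each library left out in turn. The joint removal of sgTrp53+MYC replicate 2 and Aldafermin+MYC replicate 4 was added after the data were seen.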

Additional observations from a re-analysis of the deposited data

Results flagged for a closer look

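In 119 sets of 5 libraries, 1 for each member described and group with measurable levels, a library far from the other 4 was found 14 times, where about 5.95 would be met by chance if values were independent and normally spread. The CPM values are skewed and come from the same libraries, so that number is no measure of an excess, and in 3 of the sets (Itga2 in Aldafermin+MYC, Itgb4 in sgTrp53+MYC and Lama1 in Aldafermin+MYC) the other 4 libraries averaged under 1 CPM. Of the 14, 5 came from sgTrp53+MYC replicate 2, where Itga2 was at 31.5 CPM (others 0.609 to 1.29), Itga3 at 119 (1.37 to 6.37), Itga6 at 95 (6.98 to 23.5), Itgb4 at 5.88 (0.0824 to 0.334) and Itgb7 at 34.4 (3.10 to 4.79). Another 4 came from Aldafermin+MYC replicate 3, with Itga2 at 2.24 CPM (0.595 to 0.926), Itga3 at 10.2 (2.70 to 3.54), Itgam at 20.1 (0.704 to 3.46) and Lama4 at 25.7 (6.82 to 12.0). In FGF19+MYC replicate 1, Itgad was high at 13.9 CPM (1.82 to 5.21) and Itgb5 low at 90.7 (140.8 to 158). Single values were also found for Lama1 in Aldafermin+MYC replicate 1 (3.42 CPM, others 0.124 to 1.0), Itgal in sgTrp53+MYC replicate 3 (12.3 CPM, others 3.05 to 5.26) and Itgav in Liver replicate 4 (19.4 CPM, others 28.2 to 30.8).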

How the results depend on the processing

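Between FGF-driven and sgTrp53+MYC tumors, the 3 members called lower became 5 with the likelihood ratio test, with no filter and with the GC content and length correction, 1 with the replicate number as a block and 0 without sgTrp53+MYC replicate 2 and Aldafermin+MYC replicate 4 together. Leaving out 1 library gave 1 to 4, with 1 without sgTrp53+MYC replicate 2. Without sgTrp53+MYC replicate 2, Itga2 turned to 0.17 and Itga3 to 0.57 (lowest values with 1 library left out -2.93 and -2.86), and without both libraries to 0.20 and 0.61. Between Aldafermin+MYC and FGF19+MYC tumors, DESeq2 and the likelihood ratio test called 1 member higher in place of 0. Against livers, scaling to total counts gave 17 members higher and 3 lower in FGF-driven tumors and 15 higher in sgTrp53+MYC tumors, and Itga1 and Itga9 turned to 0.43 and 0.17 in FGF-driven tumors. In sgTrp53+MYC tumors, the 8 members higher than livers became 5 without both libraries and 5 to 8 when 1 library was left out, with 5 without sgTrp53+MYC replicate 2. The deviations of same-numbered libraries of different groups correlated at -0.333 to 0.333 over 30 pairs. Differently numbered pairs were not computed, so these values cannot show whether the numbers pair the samples. The log2 fold changes between FGF-driven and sgTrp53+MYC tumors correlated across genes with GC content (Spearman's rho 0.325) and exon length (-0.221), and genes are not independent replicates.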
